A study of Mus musculus with 4 samples.

Results

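Tubulin isotypes are the closely related alpha and beta chains that pair into dimers and polymerise into microtubules. The 10 genes described here were chosen by symbol, 5 alpha (Tuba1a, Tuba1b, Tuba1c, Tuba4a, Tuba8) and 5 beta (Tubb5, Tubb2a, Tubb2b, Tubb4b, Tubb6), out of 54532 genes with read counts. Each symbol occurred once. RNA was sequenced from mouse primary T cells treated with PTC for 12 h (2 libraries, PTC 1 and PTC 2). Cells of the same time with the treatment label Control gave 2 libraries, Control 1 and Control 2. All 4 cultures were kept with serum, IL2 (a T cell growth cytokine) and CD3/28 beads, a stimulus through the T cell receptor and the co-receptor CD28. The labels neither expand PTC nor give a dose, and they state no strain, age or sort. Nor do they tell whether cultures or animals differed between libraries, so p-values reflect the spread of these samples alone, which may be technical.

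T cells use microtubules to move the centrosome and secretory granules toward the immune synapse and to build the mitotic spindle once they divide. Cells adjust tubulin mRNA to the pool of unassembled dimers, a loop called autoregulation. In human cells the ribosome-bound factor TTC5 recognises the first residues of a nascent tubulin chain and, through SCAPER, brings the CCR4-NOT deadenylase to the translated mRNA when free dimers are abundant. Agents that take microtubules apart therefore lower tubulin mRNAs, and agents that stabilise them raise these mRNAs.

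The first codons of a tubulin mRNA specify the peptide that this loop reads, so they are shown here for the 9 members with a printed sequence. They are the first 30 bases of the coding sequence of the principal GENCODE M21 transcript (GRCm38), and capitals mark the first 4 codons. In each alpha gene these encode methionine, arginine, glutamate and cysteine.
Tuba1b: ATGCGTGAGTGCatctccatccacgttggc
Tuba1c: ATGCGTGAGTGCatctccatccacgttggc
Tuba1a: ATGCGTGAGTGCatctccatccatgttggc
Tuba4a: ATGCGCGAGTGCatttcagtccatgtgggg
Tuba8: ATGAGGGAATGCatatcggtccatgtgggt
In each beta gene isoleucine takes the place of cysteine.
Tubb5: ATGAGGGAAATCgtgcacatccaggccgga
Tubb4b: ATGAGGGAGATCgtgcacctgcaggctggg
Tubb2a: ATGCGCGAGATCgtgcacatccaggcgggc
Tubb2b: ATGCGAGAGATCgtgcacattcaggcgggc
Among 21583 protein-coding genes with a complete annotated start, 9 opened with codons for the alpha form (0.0417%) and 8 with codons for the beta form (0.0371%). All 8 of the beta form and 8 of the 9 of the alpha form were tubulin genes. The other was Gm49450, a gene model on the same strand whose exons overlap those of Tuba1b and Tuba1a. All 10 members carried the form of their family, Tubb6 included.

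Library totals ranged from 15458818 to 16639911 counts. A count of 0 allows a level of up to 0.184 to 0.195 CPM (counts scaled to library size, with factors from the trimmed mean of M values, TMM), which like the Wilson intervals below covers counting error only. The intervals of fold changes come from edgeR and include the spread between libraries. The lowest count of any member in any library was 148, for Tuba8 in Control 2, and all 10 members passed the filter on low counts. Of 13884 genes tested, 188 passed a Benjamini-Hochberg adjusted p of 0.05 in the quasi-likelihood test of edgeR (82 higher with PTC and 106 lower). DESeq2, run on 22980 genes with its own filter, placed 127 higher and 95 lower. Leaving out Control 1, Control 2 or PTC 1 changed the edgeR count to 422, 337 or 76. The 11 T cell markers were all detected and summed to 5219 and 5347 CPM in PTC 1 and 2, and to 4872 and 4755 CPM in Control 1 and 2, with 0 of 11 at a count of 0 in any library. The 11 myeloid markers summed to 1523 and 1344 CPM in PTC 1 and 2 and to 1081 and 1088 CPM in Control 1 and 2. Most of this was Lyz2, at 1358 and 1176 CPM with PTC and 865 and 887 CPM in Control. By gene, both PTC libraries lay above both Control libraries for 5 of the 11 (21.3% of all genes tested) and below both for 4 (22.2%). The 7 B cell markers summed to 557 and 566 CPM with PTC and 529 and 522 CPM in Control, again with none at 0. Most of this was Ighm, at 474 and 500 CPM with PTC and 481 and 471 CPM in Control. The 8 neuron or muscle markers summed to at most 2.27 CPM with PTC and 2.17 CPM in Control, with 2 or 3 of the 8 at a count of 0 in each library. In bulk samples, fewer cells of a type and less RNA per cell cannot be told apart.

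With PTC, 1 of the 10 tubulin genes passed the test, Tuba4a, which was 1.25-fold higher. The most abundant isotypes, Tubb5 and Tuba1b, had fold changes of 1.14 and 1.16 and did not pass it. Summed over the 10 genes, tubulin transcripts took 0.554% and 0.564% of the counts in PTC 1 and 2, against 0.512% and 0.493% in Control 1 and 2. The background for a call in the higher direction was 0.591% of the genes tested, and for any call 1.35%. The edgeR test called 0 of the 10 lower, where the background was 0.763%, and 0 had an unadjusted p under 0.05 in that direction (0 lower by limma-voom and by DESeq2). By limma-voom Tuba4a was again the single call, and by DESeq2 Tuba4a and Tuba1b were called, with no adjusted p for Tuba8, Tubb2a and Tubb2b.

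Both PTC libraries lay above both Control libraries for 6 members, Tuba1a, Tuba1b, Tuba1c, Tuba4a, Tubb5 and Tubb4b, a pattern that 21.3% of all genes tested had. They lay below both for 1 member, Tubb2a, against 22.2% of all genes, and the groups overlapped for Tuba8, Tubb2b and Tubb6. Of the 10 members 8 had a positive fold change (49.3% of all genes), and 5 had an unadjusted p under 0.05 in the higher direction (6.01% of all genes). The median log2 fold change of the members was 0.18, against a median of -0.003 over all genes tested. The members share libraries and scaling, and some of them share sequence, so these counts are not independent observations.

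**Figure D1:**
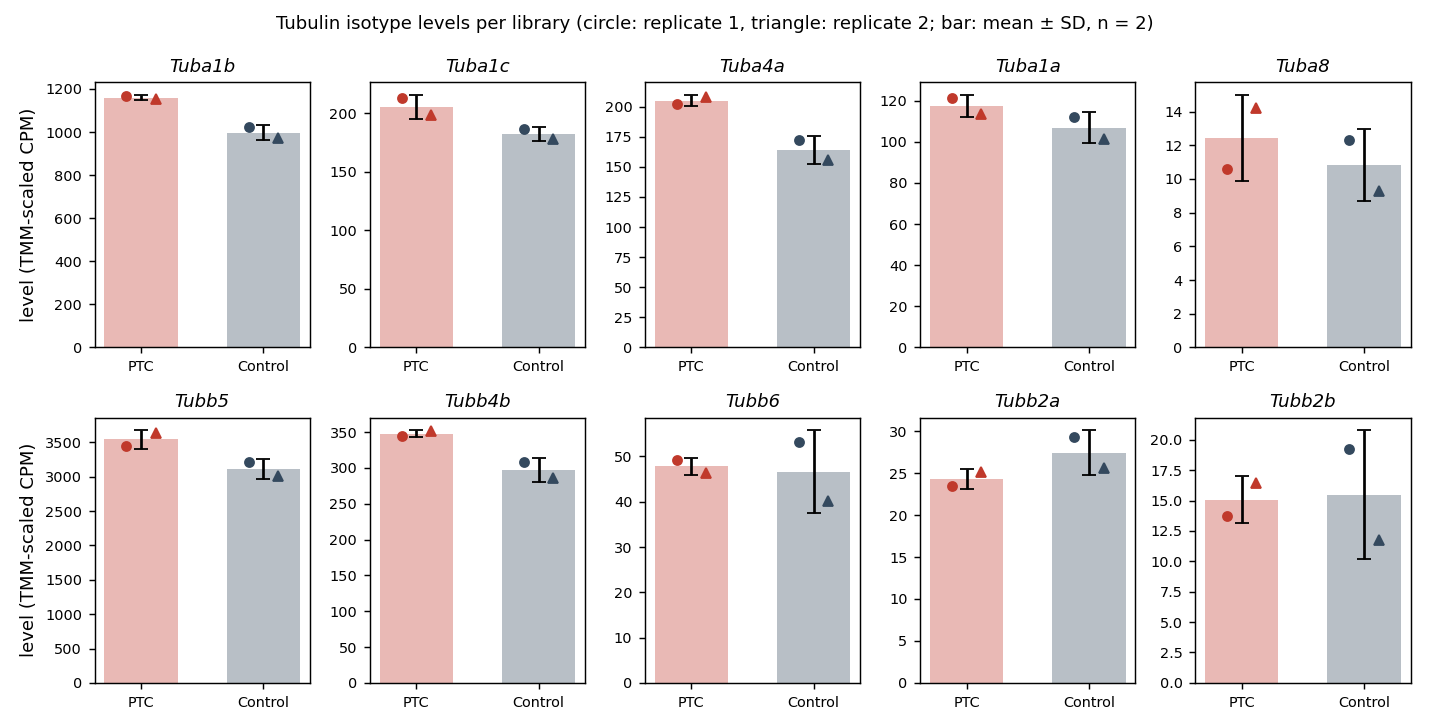
Level of each tubulin isotype in TMM-scaled CPM (y axes, one scale per gene, each from 0) in PTC libraries (left, red) and Control libraries (right, grey); bars give mean ± SD (n = 2) and points the libraries. Tuba4a stood at 202 and 208 CPM in PTC libraries, above 172 and 156 CPM in Control libraries, while Tuba8, Tubb6 and Tubb2b overlapped.

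Among the alpha genes, Tuba1b (chromosome 15, 98931425 to 98934565, minus strand, GRCm38) is the broadly expressed isotype of dividing cells. It had 17967 and 18772 counts in PTC 1 and 2, or 1169 and 1152 CPM, and 16003 and 15482 counts in Control 1 and 2, or 1022 and 973 CPM. The PTC libraries lay close together and above both Control libraries. Its log2 fold change was 0.22 (standard error 0.07, 95% confidence interval 0.07 to 0.37, edgeR adjusted p = 0.175). DESeq2 called it at an adjusted p of 0.017, while by limma-voom and in the edgeR settings that kept every library it was not called. The log2 fold change was 0.26 without Control 1 and 0.19 without Control 2.

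Tuba4a (ENSMUSG00000026202, chromosome 1, 75214228 to 75219865, minus strand) encodes an alpha chain known from platelets and brain, whose coding sequence lacks the terminal tyrosine codon of most alpha isotypes. It had 3103 and 3397 counts in PTC 1 and 2, against 2696 and 2475 counts in Control 1 and 2. Its level averaged 205 ± 4.64 CPM in PTC cells and 164 ± 11.8 CPM in Control cells (SD, n = 2 each), with no overlap. The log2 fold change was 0.32 (standard error 0.08, interval 0.16 to 0.49, edgeR adjusted p = 0.042). The direction was the same in each of 10 alternative settings, with a log2 fold change from 0.26 to 0.41. The call was lost without Control 2 (log2 fold change 0.26, adjusted p = 0.059), without PTC 1 (0.35, adjusted p = 0.310) and without PTC 2 (0.30, adjusted p = 0.334). Each such fit leaves 1 library in a group, which is assumed to vary like the other group. A lost call is thus no sign by itself of a smaller difference, nor a gained call of a larger one.

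Tuba4a also has an exonic overlap that bears on its counts. Of its annotated exonic bases 37.3% lie in exons of Stk16, a kinase gene on the opposite strand, and no source used here states whether the counting used strand. Stk16 itself stood at 57.4 and 57.2 CPM in PTC 1 and 2 and at 58.3 and 51.8 CPM in Control 1 and 2, with overlapping groups and a log2 fold change of 0.06 (edgeR adjusted p = 0.844). Of the 50-base words of the principal Tuba4a transcript, read on either strand, 48.8% occur in transcripts of other genes and 47.7% in those of Stk16. No other member shared such a word with Tuba4a.

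Tuba1c (chromosome 15, 99029891 to 99038110, plus strand), another broadly expressed alpha gene, had 213 and 198 CPM in PTC 1 and 2 and 187 and 178 CPM in Control 1 and 2. The groups did not overlap, and its log2 fold change was 0.17 with an interval from 0.01 to 0.33 (edgeR adjusted p = 0.337). Tuba1a (chromosome 15, 98949837 to 98953703, minus strand), the main alpha gene of developing neurons, had 121 and 113 CPM in PTC 1 and 2 and 112 and 101 CPM in Control 1 and 2. PTC 2 lay only just above Control 1, and the log2 fold change was 0.14 with an interval from -0.03 to 0.30 (edgeR adjusted p = 0.502).

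Tuba1a, Tuba1b and Tuba1c lie in a cluster on chromosome 15 and are near-copies of each other. Of the 50-base words of their principal transcripts, 52.0%, 64.6% and 59.8% also occur in transcripts of other members, and 75.5%, 83.1% and 61.0% in those of any other gene, pseudogenes included. The count of each single gene is therefore uncertain, since it turns on the assignment of reads that match more than 1 gene. Summed over the 3 genes, the level was 1503 and 1463 CPM in PTC 1 and 2, against 1321 and 1253 CPM in Control 1 and 2, a ratio of 1.15. Gm49450 shares 22.7% of the exonic bases of Tuba1b and 26.2% of those of Tuba1a, and had 11 and 5 counts in PTC 1 and 2 and 6 and 10 counts in Control 1 and 2.

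Tuba8 (chromosome 6, 121210696 to 121226854, plus strand), known from testis, muscle and brain, was the lowest alpha gene. It had 163 and 232 counts in PTC 1 and 2 and 193 and 148 counts in Control 1 and 2. The groups overlapped, and its log2 fold change of 0.20 had an interval from -0.18 to 0.58 (edgeR adjusted p = 0.692). Without PTC 2 it turned to -0.03. Exons of the antisense gene Gm15856 overlap 16.3% of its exonic bases.

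**Figure D2:**
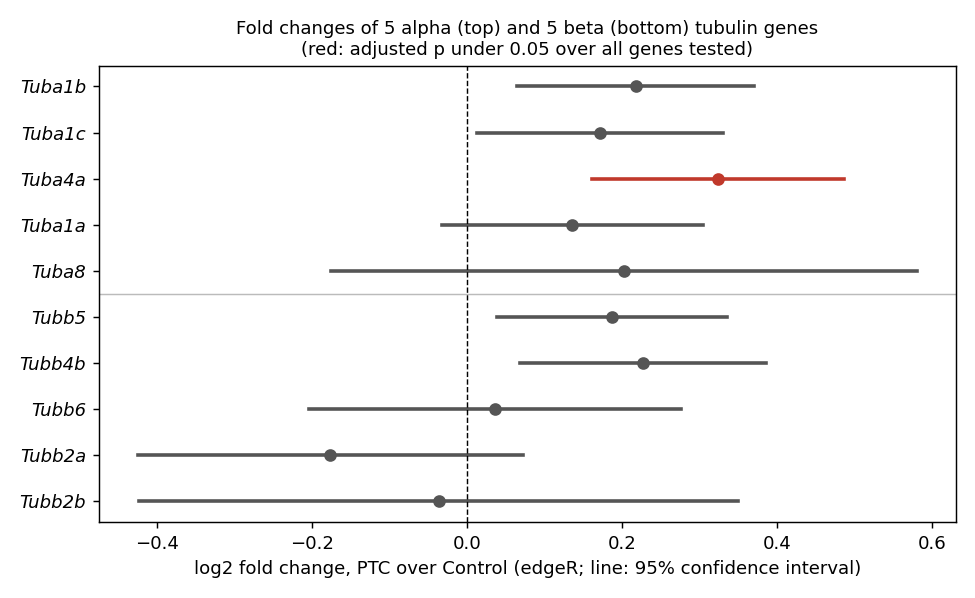
Log2 fold change of each isotype, PTC over Control (x axis), from edgeR, with its 95% confidence interval; alpha genes are above the grey line and beta genes below it. Only Tuba4a, at 0.32, passed an adjusted p of 0.05 over all genes tested, and the intervals of Tuba1b, Tuba1c, Tubb5 and Tubb4b also lay above 0.

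Among the beta genes, Tubb5 (chromosome 17, 35833921 to 35838306, minus strand), the class I beta isotype found in nearly all cells, had 53038 and 59287 counts in PTC 1 and 2 and 50369 and 47832 counts in Control 1 and 2. In CPM this was 3450.1 and 3637 with PTC and 3218 and 3006 in Control, with no overlap. Its log2 fold change was 0.19 (standard error 0.07, interval 0.04 to 0.34, edgeR adjusted p = 0.244). Without Control 1 the log2 fold change was 0.25, and without Control 2 it was 0.14. Its sequence is nearly its own, with 0.115% of its 50-base words found in transcripts of other genes.

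Tubb4b (chromosome 2, 25222160 to 25224702, minus strand), a widely expressed class IV beta gene, was the beta gene with the largest fold change. It had 5293 and 5723 counts in PTC 1 and 2 and 4831 and 4543 counts in Control 1 and 2, and averaged 348 ± 4.81 CPM in PTC cells and 297 ± 16.3 CPM in Control cells (SD, n = 2 each). The groups did not overlap. The log2 fold change was 0.23 with an interval from 0.07 to 0.39 (edgeR adjusted p = 0.175). It was 0.29 without Control 1 and 0.18 without Control 2. Of its 50-base words 43.6% occur in the pseudogene Tubb4b-ps1.

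Tubb2a and Tubb2b, which lie side by side on chromosome 13 and are best known from neurons, both had fold changes below 0 that did not pass the test. Tubb2a (34074274 to 34078007, minus strand) had 360 and 410 counts in PTC 1 and 2 and 459 and 407 counts in Control 1 and 2. After scaling this was 23.4 and 25.2 CPM with PTC and 29.3 and 25.6 CPM in Control, so PTC 2 and Control 2 nearly met. Its log2 fold change was -0.18 with an interval from -0.42 to 0.07 (edgeR adjusted p = 0.571), and it was negative in each of 10 alternative settings, from -0.27 to -0.07.

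Tubb2b (34126748 to 34130466, minus strand) had 211 and 268 counts in PTC 1 and 2 and 301 and 187 counts in Control 1 and 2. The Control libraries lay outside the PTC libraries on both sides, and its log2 fold change was -0.04 with an interval from -0.42 to 0.35 (edgeR adjusted p = 0.960). Its sign turned by limma-voom (0.0042), without Control 1 (0.37) and without PTC 1 (0.09). The pair share 45.6% of the words of Tubb2a and 33.4% of those of Tubb2b, and their sum was 37.1 and 41.6 CPM in PTC 1 and 2 and 48.6 and 37.3 CPM in Control 1 and 2, which overlap.

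Tubb6 (chromosome 18, 67390717 to 67402748, plus strand), a class V beta gene known from muscle, had 756 and 757 counts in PTC 1 and 2 and 831 and 639 counts in Control 1 and 2. The Control libraries again lay on both sides of the PTC libraries, and its log2 fold change was 0.04 with an interval from -0.20 to 0.28 (edgeR adjusted p = 0.932). It turned to -0.15 without Control 2 and to -0.0037 without PTC 1. It shares no 50-base word with another annotated gene. For Tuba8, Tubb2b and Tubb6 the intervals hold both 0 and the log2 fold change of Tubb5, 0.19, so a difference of that size was not detectable at this depth and with 2 libraries a group.

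**Figure D3:**
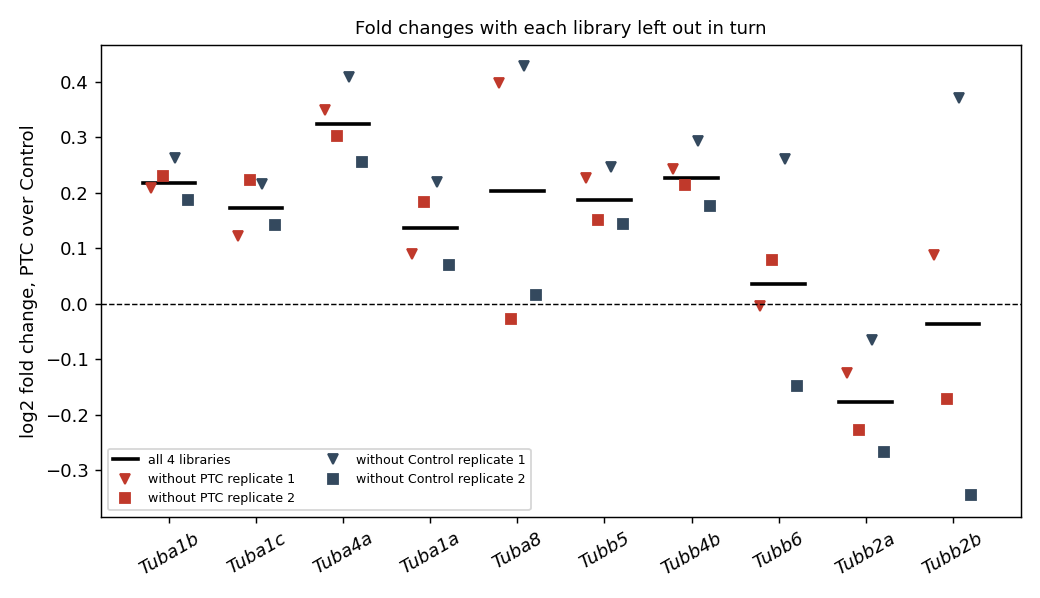
Log2 fold change, PTC over Control (y axis), of each isotype with all 4 libraries (black bar) and with each library left out (red, a PTC library; grey, a Control library). Leaving out Control 1 gave the highest value for every gene except Tuba1c, 0.41 for Tuba4a among them, and leaving out Control 2 the lowest for every gene except Tuba1c and Tuba8.

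Levels of different genes were compared per length, here as CPM per kilobase of the gene length in the deposited table (RPKM). Such a comparison also turns on reads that match more than 1 gene, whose handling is not stated. The share of 50-base words found in transcripts of other genes ran from 0% (Tubb6) and 0.115% (Tubb5) to 83.1% (Tuba1b). The order, shares and ratio below carry this uncertainty, and its size was not tested. In PTC cells the order of these length-scaled levels was Tubb5 (1065 ± 39.8 RPKM), Tuba1b (619 ± 6.44), Tubb4b (167 ± 2.30), Tuba1c (89.8 ± 4.44), Tuba1a (65.0 ± 3.01), Tuba4a (55.4 ± 1.25), Tubb6 (27.2 ± 1.10), Tubb2a (15.1 ± 0.762), Tubb2b (6.58 ± 0.837) and Tuba8 (5.49 ± 1.13; SD, n = 2 each). The order was the same in Control cells, with Tubb5 at 935 ± 44.9 RPKM, Tuba1b at 532 ± 18.6 RPKM and Tuba8 at 4.78 ± 0.946 RPKM. Tubb2b and Tuba8, the last pair, overlapped in both groups. Over the length of the principal transcript in place of the gene length, Tuba4a came above Tuba1a in PTC cells (72.2 against 65.0 RPKM) and just below it in Control cells (57.7 against 59.2 RPKM), so the order of these 2 depends on the length used.

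The make-up of each family by length-scaled level was close between groups. Tuba1b made 74.1 ± 0.251% of the alpha members' level in PTC cells and 73.9 ± 0.451% in Control cells, and Tubb5 83.2 ± 0.341% and 82.9 ± 0.568% of the beta members' level (SD, n = 2 each). Tuba4a made 6.64 ± 0.242% of the alpha level in PTC cells and 6.15 ± 0.190% in Control cells. Tubb2a made 1.18 ± 0.0204% of the beta level in PTC cells and 1.51 ± 0.0628% in Control cells. With 2 libraries a group an exact two-sided permutation test cannot give a p below 0.333, so none is given for these shares.

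Counted in reads, Tuba4a was 11.8% and 12.4% of the alpha members' counts in PTC 1 and 2 (Wilson 95% intervals 11.4 to 12.2% and 12.0 to 12.8%), against 11.4% and 10.97% in Control 1 and 2 (11.04 to 11.9% and 10.6 to 11.4%). The interval of PTC 1 overlapped those of both Control libraries, and that of PTC 2 neither. Tubb2a was 0.603% and 0.617% of the beta members' counts in PTC 1 and 2 (0.544 to 0.669% and 0.560 to 0.680%), against 0.808% and 0.759% in Control 1 and 2 (0.738 to 0.885% and 0.689 to 0.836%). These intervals did not overlap between the groups. The ratio of alpha to beta length-scaled levels was 0.674 and 0.631 in PTC 1 and 2 and 0.632 and 0.645 in Control 1 and 2, with the Control libraries inside the range of the PTC libraries.

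**Figure D4:**
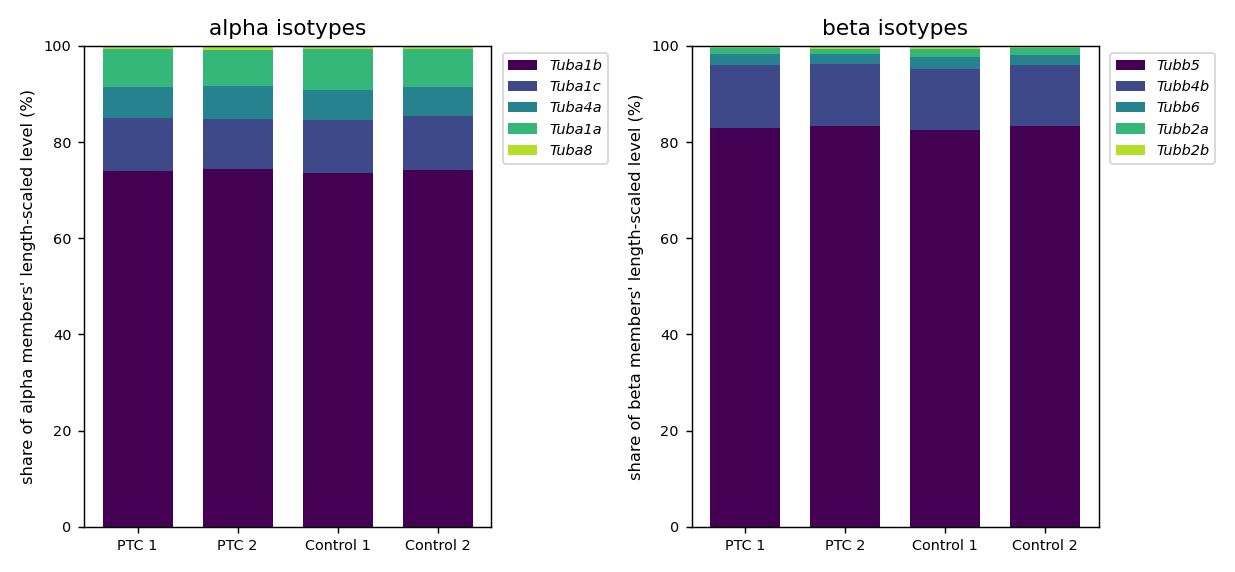
Share of each isotype in the summed length-scaled level of the alpha (left panel) and beta (right panel) members, in percent (y axes), for PTC 1, PTC 2, Control 1 and Control 2. Tuba1b made 74.1% of the alpha level in PTC cells and 73.9% in Control cells, and Tubb5 83.2% and 82.9% of the beta level.

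Tubb5 and Tubb4b are the 2 most abundant beta genes, and both lay higher in PTC libraries. The 250 bases before their start sites (RefSeq, GRCm38.p6) are shown because they hold several copies of CCAAT, an element bound by the factor NF-Y in many promoters. Both lie on the minus strand, and capitals mark CCAAT and GGGCGG on either strand.
Tubb5, chr17:35838302-35838551: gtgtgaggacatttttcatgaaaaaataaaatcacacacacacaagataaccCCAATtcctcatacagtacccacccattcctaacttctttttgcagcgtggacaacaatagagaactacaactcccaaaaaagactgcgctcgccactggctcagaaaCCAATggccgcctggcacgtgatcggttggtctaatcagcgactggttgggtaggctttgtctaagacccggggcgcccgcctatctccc
Tubb4b, chr2:25224703-25224952: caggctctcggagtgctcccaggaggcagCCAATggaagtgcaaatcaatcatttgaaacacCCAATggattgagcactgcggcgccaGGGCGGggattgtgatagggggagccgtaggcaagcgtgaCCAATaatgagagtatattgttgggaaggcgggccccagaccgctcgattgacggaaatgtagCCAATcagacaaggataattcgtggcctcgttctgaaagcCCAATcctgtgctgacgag
On either strand, CCAAT occurred 2 times before Tubb5 and 5 times before Tubb4b, and 4 of the 8 member promoters in the RefSeq table held it, against 33.8% of 32851 promoters. GGGCGG, the core of the Sp1 site, was in 5 of the 8 (32.7% of all promoters) and TATAAA in 1 of the 8, that of Tubb2a (12.4%). No match overlapped another. Tuba4a, the member that was called, had 2 copies of GGGCGG and 0 of CCAAT. A match describes these letters and is not evidence of binding.

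Of 10 other tubulin genes, 8 passed the filter on low counts, and edgeR called 0 of them, with 0 at an unadjusted p under 0.05. Over all genes tested these shares were 1.35% and 12.9%. Limma-voom and DESeq2 also called 0, the second without an adjusted p for 7. Tubg1, the gamma-tubulin that nucleates microtubules, stood at 75.0 and 86.2 CPM in PTC 1 and 2 and at 89.9 and 84.5 CPM in Control 1 and 2, which overlap (log2 fold change -0.11, edgeR adjusted p = 0.623). Tubb3, the neuronal class III beta gene, stood at 7.03 and 6.63 CPM in PTC 1 and 2 and at 7.73 and 7.86 CPM in Control 1 and 2 (log2 fold change -0.19, edgeR adjusted p = 0.718). Tubb4a, a brain isotype, had log2 fold change 0.15 and Tubb1, the isotype of platelets, 0.01 (edgeR adjusted p = 0.812 and 0.996). Tuba3b, with 1 count in all, and Tubal3, with 1 count with PTC and 5 in Control, were not tested.

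Of the 13 genes of the autoregulation machinery, edgeR called 0, limma-voom 0 and DESeq2 0, with no DESeq2 adjusted p for 2. Their median log2 fold change was 0.09, and 10 were positive. Of all genes tested 49.3% were positive, edgeR called 1.35%, and 12.9% had an unadjusted p under 0.05 by edgeR in either direction. Ttc5, which encodes the nascent-chain reader, had 48.0 and 44.9 CPM in PTC 1 and 2 and 46.6 and 42.2 CPM in Control 1 and 2. Its groups overlapped, with a log2 fold change of 0.06 (edgeR adjusted p = 0.836), which was -0.0001 without Control 2. Scaper, the adaptor gene, had 4.75 and 6.63 CPM in PTC 1 and 2 and 6.52 and 5.66 CPM in Control 1 and 2, also overlapping (log2 fold change -0.09, edgeR adjusted p = 0.907). The members at an unadjusted p under 0.05 were Cnot2 (0.23) and Cnot10 (0.18), deadenylase subunit genes named after their values were seen.

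Genes that fold, modify and organise tubulin had no edgeR call either. Of all genes tested, edgeR called 1.35%, and 12.9% had an unadjusted p under 0.05 by edgeR in either direction. Among 22 folding genes, the CCT chaperonin, prefoldin and tubulin cofactors, 0 were called (0 by both other tools, with no DESeq2 adjusted p for 4). The median log2 fold change was -0.01 and 10 were positive (49.3% of all genes). Cofactor C (Tbcc, -0.46, named after its value was seen) was the single one at an unadjusted p under 0.05. Among 16 tested genes of 18 for enzymes that modify tubulin, 0 were called (0 by both other tools, no DESeq2 adjusted p for 12). The median was -0.10, with 5 positive (49.3% of all genes). At an unadjusted p under 0.05 were the ligase-family genes Ttll1 (-0.36) and Ttll11 (-0.58) and the carboxypeptidase gene Vash1 (-0.67), likewise named after their values were seen. Among 11 genes of the gamma-tubulin ring complex, 0 were called (0 by both other tools, no DESeq2 adjusted p for 4), with a median of -0.07, and Tubgcp2 (-0.20) and Mzt2 (-0.40), named after their values were seen, had an unadjusted p under 0.05.

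Of 24 tested genes of 26 for microtubule dynamics, 0 were called by edgeR and by limma-voom, and the median log2 fold change was -0.02. Over all genes tested, edgeR called 1.35%, and 12.9% had an unadjusted p under 0.05 in either direction. Stmn1, which encodes stathmin, a protein that sequesters tubulin dimers, had 437 and 430 CPM in PTC 1 and 2 and 379 and 372 CPM in Control 1 and 2. Its groups did not overlap, and its log2 fold change of 0.21 had an edgeR adjusted p of 0.206 and a DESeq2 adjusted p of 0.046. DESeq2 gave no adjusted p for 5 of the list and made no other call. The kinesin-8 genes Kif18a (-0.53) and Kif18b (-0.22) were the other ones at an unadjusted p under 0.05 and were named after their values were seen.

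Tubulin demand changes with division, and other cytoskeletal genes give the setting of these folds. The background was again 1.35% of all genes called by edgeR, and 12.9% with an unadjusted p under 0.05 in either direction. Of 22 G2/M genes 0 were called by edgeR (0 by limma-voom, 1 by DESeq2, Mki67, and no DESeq2 adjusted p for 4). The median log2 fold change was 0.04, with 12 positive (49.3% of all genes). At an unadjusted p under 0.05 Cdk1 (0.20), Top2a (0.17) and Aurkb (0.16) lay higher and Mki67 (-0.27) lower. Of 14 actin and intermediate filament genes 0 were called by edgeR (0 by limma-voom), with a median of 0.08, 10 positive (49.3% of all genes) and 8 with both PTC libraries above both Control libraries (21.3% of all genes). DESeq2 called 3 of them, Cfl1, Vim and Tmsb4x, with log2 fold changes by edgeR of 0.24, 0.23 and 0.19. All of these genes were named after their values were seen.

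**Figure D5:**
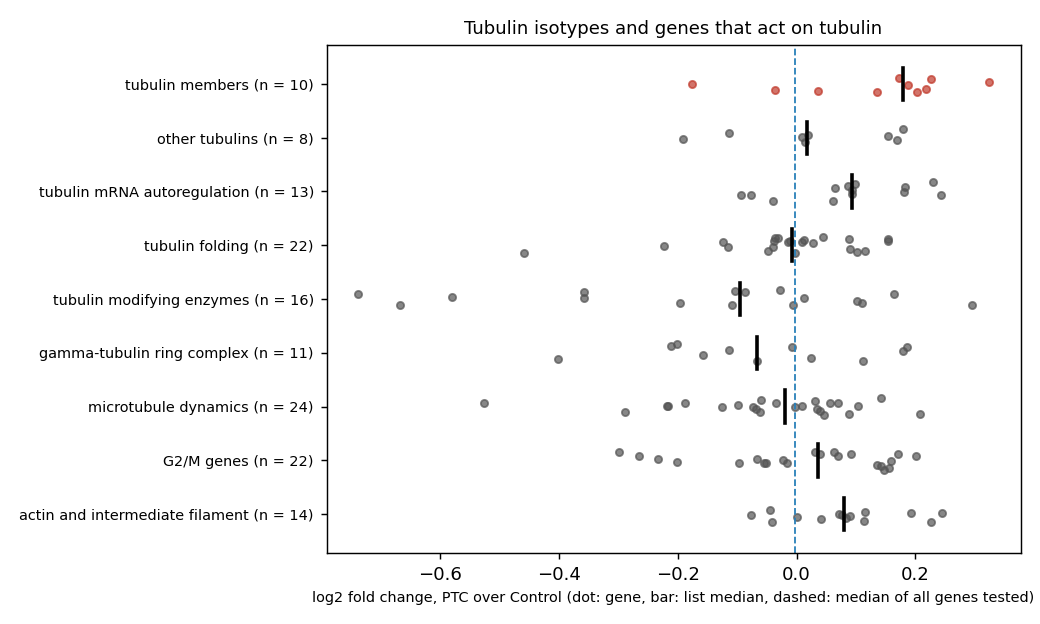
Log2 fold change, PTC over Control (x axis), of the tested genes of each list (dots), with the list median (black bar) and the median of all genes tested (dashed line). The tubulin members have a median of 0.18, against 0.02 for the other tubulins, 0.09 for the autoregulation machinery and -0.01 for the folding genes.

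Among the cell type markers, edgeR made calls only in the myeloid list, in both directions, and in the B cell list. All 11 T cell markers had fold changes above 0 (49.3% of all genes), at a median log2 of 0.13. The edgeR test called 0 of them (limma-voom 0, DESeq2 1, Cd8b1). At an unadjusted p under 0.05 were 5, all higher (6.01% of all genes). These were Cd3e, Cd2, Cd4, Cd8a and Cd8b1, named after their values were seen. Of 11 myeloid markers, Lyz2 (log2 fold change 0.53), a lysozyme gene, and S100a8 (0.69) rose, calls lost without PTC 1. Cd14 (-0.80), Mpo (-1.70) and Elane (-2.36) fell, and the call of Cd14 was lost without Control 1. Of 7 B cell markers Igkc rose (0.77). Over all genes tested, edgeR called 0.591% higher and 0.763% lower. The part of these cells in the tubulin values was not tested.

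By profile over the 4 libraries, the 5 genes closest to the mean tubulin profile among 9736 genes compared were Pkm, Rpl14-ps1, Ppp1r14b, Clic1 and Snrpg. The root mean square distance of their centred log2 CPM from it was 0.00563 to 0.0109. Their log2 fold changes ran from 0.12 to 0.14, and none was called (edgeR adjusted p from 0.476 to 0.581). With 4 libraries such closeness is a description alone. The mean tubulin profile itself, in centred log2 CPM, stood at 0.035 and 0.099 in PTC 1 and 2. In Control 1 and 2 it stood at 0.050 and -0.184. In this mean, which weights each member alike, Control 1 thus lay above PTC 1, and Control 2 was the lowest library. Closeness to this profile therefore does not show that both PTC libraries lay above both Control libraries. The summed level of the members, set mostly by the abundant isotypes, was instead higher in PTC 1 (5596 CPM) than in Control 1 (5134 CPM).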

How the data were processed

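RNA-seq read counts of 2 PTC and 2 Control libraries (12 h, grouped by the treatment label) were analysed. The authors' deposited table gives whole-number counts per gene, made with CASAVA 1.8, HISAT2 2.0.5 and featureCounts 1.5.0-p3 per the submitters' processing notes. For the build, strandedness and multi-mapping reads, the sources used here give nothing. Of 54532 gene IDs, 54409 were in GENCODE M21 and 98.3% of these had the same position, so coordinates are on GRCm38. Also, 2 count columns matched no sample and were not used.

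Genes passing filterByExpr (13884) were scaled by TMM and tested by quasi-likelihood in edgeR 4.0.16 (R 4.3.3), PTC over Control, with Benjamini-Hochberg adjustment over all of them and a threshold of 0.05. Standard errors and 95% intervals follow from its F statistic. Alternatives were RLE and upper-quartile scaling, no filter, limma-voom (limma 3.58.1), DESeq2 1.42.0, each library left out, and the replicate number as a block. All 3 tools were tested on simulated data. Pairs of libraries differed beyond sampling noise (chi-square over its degrees of freedom 4.41 to 10.1). Levels are CPM, length-scaled with the deposited gene length. The members and lists were chosen with earlier results of these data known. All 10 members were named, with called members of each list and 7 fixed genes (Ttc5, Scaper, Stmn1, Tubg1, Tubb1, Tubb3, Tubb4a). Others are said to be named after their values were seen.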

Additional observations from a re-analysis of the deposited data

How the results depend on the processing

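The number of tubulin members called, 1 with all libraries, was 2 by DESeq2, 0 with the replicate number as a block and 0 to 4 with a library left out. The 4 called without Control 1 were Tuba1b, Tuba4a, Tubb5 and Tubb4b, and 0 were called without Control 2, PTC 1 or PTC 2. Of all genes, 188 were called, 432 without a filter, 237 with the block and 76 to 422 with a library left out. Of the genes in the other lists 6 were called, 11 without a filter and 4 to 11 with a library left out. The replicate numbers do not pair the samples by their labels, and same-numbered libraries deviated with a correlation of -0.05; under the block Tuba4a had an adjusted p of 0.059. The fold changes of Tuba1a, Tuba1b, Tuba1c, Tuba4a, Tubb5 and Tubb4b were positive, and that of Tubb2a negative, in each of 10 settings. Sign changes arose for Tubb2b by limma-voom (0.0042), and with a library left out for Tubb2b (-0.34 to 0.37), Tuba8 (-0.027 to 0.43), Tubb6 (-0.15 to 0.26), Ttc5 (-0.0001 to 0.15), Scaper (-0.36 to 0.12), Tubb4a (-0.028 to 0.32) and Tubb1 (-0.12 to 0.13). DESeq2 gave no adjusted p for the myeloid genes Cd14, S100a8 and Elane, so their calls were not compared by it. The cause of these sign changes was not tested. Scaling moved the median of all genes by at most 0.02 on the log2 scale. With 2 libraries a group, folds near 1.1 to 1.2 in the low isotypes are below what the intervals resolve.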
